A study of Homo sapiens with 192 samples.

Results

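The heat shock protein genes described here are 10 genes of the cytosolic and mitochondrial chaperone systems, HSPA1A, HSPA1B, HSPA8, HSPH1, DNAJB1, HSP90AA1, HSPB1, HSPD1, HSPE1 and BAG3, out of the 58243 genes counted. They were taken by name, each symbol being mapped to its Ensembl identifier, and all 10 were found and passed the filter on low counts. RNA-Seq was performed on cultures of 4 human colorectal cancer (CRC) lines in 2D and 3D, namely HCT116, HT29, LS174T and LS513. Each of the 8 groups held 3 libraries, giving 24 in all. In its results on receptor genes, the study treats HT29 and LS513 as microsatellite stable and HCT116 and LS174T as microsatellite instable. Its clustering result, which it relates to these phenotypes, instead groups HT29 with LS174T and HCT116 with LS513. HCT116 cells were kept in McCoy medium and the other lines in DMEM, both with serum, so that line and medium cannot be told apart wherever HCT116 is compared with another line. The labels name no treatment for any group, and the 2D and 3D cultures of a line differ by growth condition alone as far as they say. Spheroids of the study's growth assays were formed in low attachment plates, whereas the labels do not describe how the 3D cultures for RNA-Seq were made. Each line is a single established tumor line, and the labels do not say whether the 3 libraries of a group came from separate cultures. The p-values therefore measure the spread between libraries. In the main fit this spread was estimated for each gene over all 8 groups together, so a line's standard error (SE) is not its own spread.

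Heat shock proteins are chaperones, proteins that help others to fold, keep damaged proteins from aggregating and pass them on for refolding or degradation. HSP70 proteins bind exposed stretches of unfolded chains in a cycle driven by ATP, J-domain proteins such as DNAJB1 bring the client and start the cycle, and nucleotide exchange factors such as HSPH1 and BAG3 end it. HSP90 takes over later folding steps of kinases and receptors, the HSP60 and HSP10 pair folds proteins inside mitochondria, and small heat shock proteins hold unfolded proteins without using ATP. Some of these genes are needed at all times, whereas others are switched on by heat, proteotoxic drugs and other stress through the transcription factor HSF1, which binds arrays of inverted GAA units called heat shock elements.

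Promoter stretches that hold an uninterrupted heat shock element are shown first. Promoter windows of 300 bases, from 250 bases before to 50 after each annotated start, were taken from RefSeq on GRCh38.p14, and all 10 members had at least 1 window (14 in all). The letters GAANNTTCNNGAA, or their reverse TTCNNGAANNTTC, were found in a window of 3 members, HSPA8, HSP90AA1 and HSPD1, against 0.489% of the 34943 windows of all genes. The shorter pair of units, GAANNTTC or TTCNNGAA, which lies within the longer motif, was found in 7 members, HSPH1, HSPE1 and BAG3 being without it, and in 13.5% of all windows. A member was counted if any of its windows held a match, whereas the percentages are of single windows, so they are not on the same basis. The stretches that hold the longer motif are given 5′ to 3′ on the strand of the gene, with the motif in capitals.
HSPA8, nearer the start: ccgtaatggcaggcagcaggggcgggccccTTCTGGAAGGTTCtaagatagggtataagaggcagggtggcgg
HSPA8, farther from the start: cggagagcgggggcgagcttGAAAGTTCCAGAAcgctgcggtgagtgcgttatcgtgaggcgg
HSP90AA1: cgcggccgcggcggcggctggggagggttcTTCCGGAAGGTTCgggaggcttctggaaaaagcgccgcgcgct
HSPD1: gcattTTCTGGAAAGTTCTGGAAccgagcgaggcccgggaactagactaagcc
The first HSPA8 stretch is chr11:123062149-123062221 and its motif ends 43 bases before the annotated start, and the second is chr11:123062324-123062386. The HSP90AA1 stretch is chr14:102087090-102087162, upstream of the inner of its annotated starts, and the HSPD1 stretch is chr2:197500038-197500090. All 4 stretches lie on the minus strand. HSPD1 held overlapping matches, so that its capitals run over 18 bases. No match says only that these letters are not in the window. HSPD1 and HSPE1 are head-to-head neighbors on chromosome 2, and their starts are 539 bases apart for the HSPD1 start used here, so the HSPD1 stretch lies between them.

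Library totals lay between 18723942 and 34277421 counts (median 30777613), and a floor of 3 counts corresponded to 0.0875 to 0.160 counts per 1000000 counts of the library (CPM). The floor covers counting error only, whereas the confidence intervals below come from the fit and include the spread between libraries. The least abundant member, HSPA1A, still had 86 counts or more in every library. The 9 colon epithelial markers summed to between 2874 and 17308 CPM, with EPCAM, CDH1, KRT8 and KRT18 at 494 counts or more in every library. In HCT116, however, CDX1 had at most 1 count in a library, and VIL1 and LGALS4 had group means of 0.363 CPM or less. The defining leukocyte and fibroblast markers PTPRC, CD3E, COL1A2, COL3A1, DCN and LUM were at 3 counts or fewer in every library, whereas LYZ and CD68 were counted. The summed leukocyte list was 1319.6 to 1430.4 CPM in HT29 grown in 2D and 2420.1 to 2674 CPM in 3D, and at most 96.3 CPM in the other lines. Endothelial markers summed to 2.38 CPM or less and fibroblast markers to 22.1 CPM or less. Replicate 3 of HT29 grown in 3D stood apart from the other two in several stress genes, above all HSPA6 (20.7 CPM against 0.603 and 0.871 CPM), and the HT29 estimates of HSPA1A, HSPA1B, DNAJB1, BAG3 and HSPB1 are given with and without it. The members and the wider lists below were chosen with earlier results of these data known.

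To determine how growth in 3D affects heat shock protein genes, the 3D libraries of each line were compared with its 2D libraries. Expression of 9 members was lower in 3D on average over the 4 lines, and that of 1, the small heat shock protein gene HSPB1, was higher. The fall was largest for HSPH1, whose level was 2.30 times lower in 3D, followed by HSP90AA1 (1.59 times) and HSPA1A (1.5 times), and smallest for DNAJB1 (1.17 times). Over the mean of the 4 lines, 23.9% of the 19387 genes tested were called lower and 26.6% higher at an adjusted p under 0.05 (edgeR quasi-likelihood test, two-sided, Benjamini-Hochberg adjustment over all genes tested). The number of calls varied by line. In HT29, 8 members were called lower, where 19.6% of all genes were, and 0 higher (21.1% of all genes). In LS513, 4 were called lower (9.9% of all genes) and 1 higher (13.7%). In HCT116, 9 were called lower (12.3% of all genes) and 0 higher (16.8%). In LS174T, 2 were called lower (9.15% of all genes) and 0 higher (13.1%). Leaving out 1 library lowered these counts: in HT29 to 4 without 2D replicate 2 or 3D replicate 1 and to 5 without 3D replicate 4, in HCT116 to 5 without 3D replicate 1, and in LS174T to 1 without 2D replicate 1 or 3 or 3D replicate 1 or 3.

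The median log2 fold change of the members (3D over 2D) was -0.57 in HCT116, -0.50 in HT29, -0.30 in LS513 and -0.26 in LS174T, whereas the median of all genes tested lay between 0.00 and 0.02. In every line 9 of the 10 estimates were below 0, the exception being HSPB1, where 45.4 to 46.4% of all genes tested were. HSPH1 was the 1 member called lower in all 4 lines, as were 2.46% of all genes. The 3 libraries of 3D lay entirely below those of 2D for 6 members in HT29 (25.6% of all genes), 6 in LS513 (20% of all genes), 7 in HCT116 (17.6% of all genes) and 5 in LS174T (17.6% of all genes). The 10 members together took 0.843 to 0.988% of a library's counts in HT29 grown in 2D and 0.507 to 0.629% in 3D. The same share was 0.951 to 1.08% against 0.699 to 0.748% in LS513, 1.22 to 1.32% against 0.654 to 0.958% in HCT116, and 0.929 to 0.985% against 0.730 to 0.846% in LS174T. In none of the lines did these shares, which are of raw counts without TMM factors, overlap between the 2 growth conditions. The TMM factor of LS174T 3D replicate 2 was 0.933, against 1.09 to 1.12 in the 2D libraries of that line. Scaled with these factors, that library does not lie below the 2D libraries of LS174T. HSPA8, HSP90AA1 and HSPD1 hold most of the counts, so the shares mainly follow these genes. These are bulk samples, in which fewer cells with a transcript and less of it per cell cannot be told apart. Genes of cell proliferation moved in the same direction, in a list of 10 (MKI67, TOP2A, CDK1 and others). Of these, 7 were called lower in HT29 (19.6% of all genes, median -0.51) and 8 in LS513 (9.9%, median -0.37). In HCT116 6 were called lower (12.3%, median -0.39) and in LS174T 4 (9.15%, median -0.18), and 0 were called higher in any line. Their summed level ranged from 2194 to 3417 CPM over the 2D libraries and from 1779.8 to 2618 CPM over the 3D libraries. Their part in the change of the members was not tested.

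**Figure D1:**
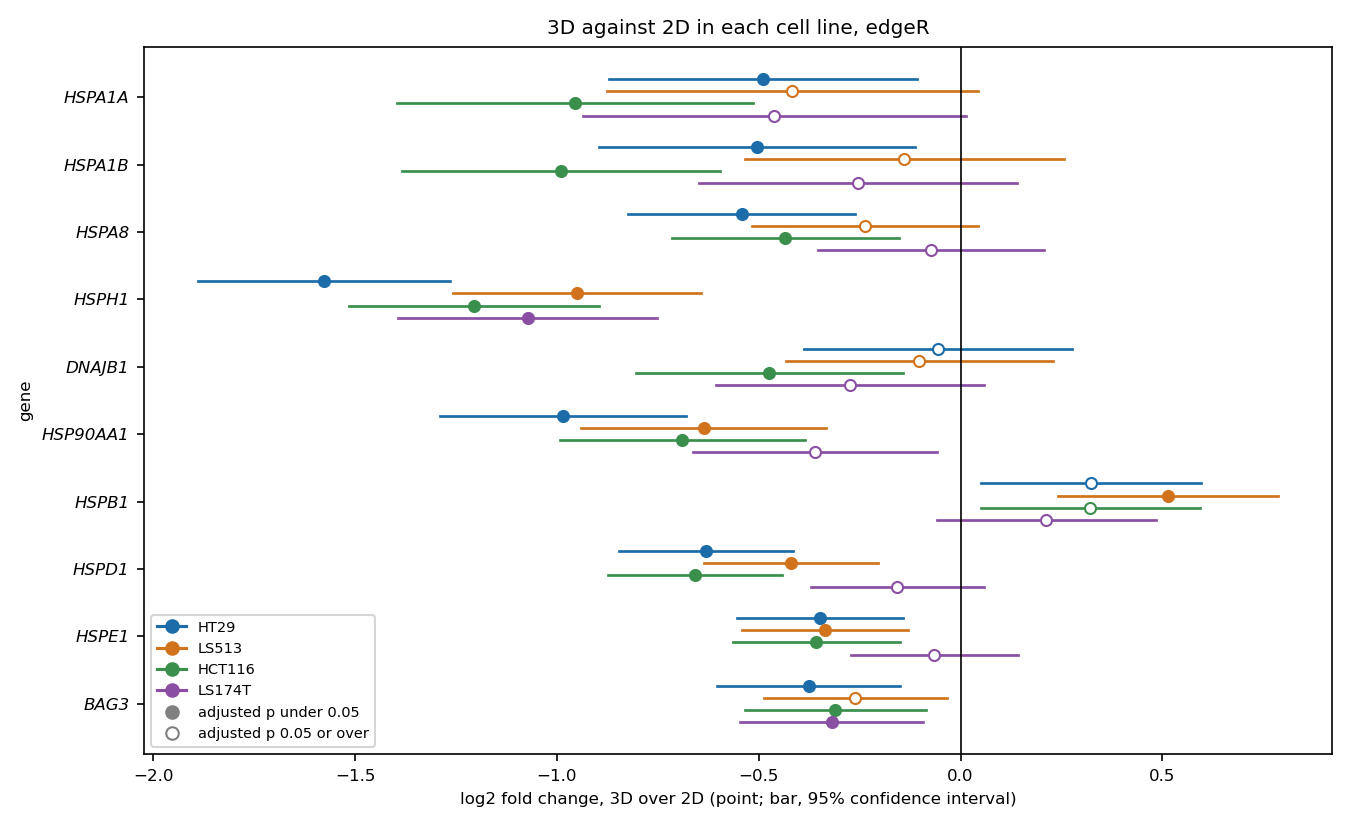
Log2 fold change of 3D over 2D for the 10 members in each cell line, with the 95% confidence interval as a bar. Filled points passed an adjusted p of 0.05, as HSPH1 did in all 4 lines, and HSPB1 is the 1 member to the right of 0.

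Among the HSP70 genes, HSPA1A and HSPA1B encode the stress-inducible HSP70 from a pair of near-identical single-exon genes on chromosome 6 (HSPA1A at chr6:31815464-31817946 and HSPA1B at chr6:31827735-31830255, GENCODE 29 on GRCh38, plus strand). HSPA1A was at 123, 137 and 112 CPM in the libraries of HT29 grown in 2D and at 70.8, 120.4 and 74.3 CPM in 3D. HSPA1B was at 122, 131 and 120.0 CPM in 2D and at 74.2, 123 and 65.7 CPM in 3D. For both genes, 1 library of HT29 grown in 3D, replicate 3, stood within the range of the 2D libraries, and the other two were well below it. The log2 fold changes were -0.49 (SE 0.18, adjusted p = 0.038) and -0.50 (SE 0.19, adjusted p = 0.037). Leaving out any of 5 HT29 libraries ended one or both of these calls (adjusted p 0.0736 to 0.252), 2D replicates 1, 2 and 3 and 3D replicates 1 and 4, and both were also lost with DESeq2 (0.0654 and 0.0527). Without 3D replicate 3 the estimates were -0.73 and -0.78 (adjusted p = 0.0035 and 0.0018).

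The estimates of this pair were lowest in HCT116. HSPA1A was at 9.24, 9.03 and 6.96 CPM in 2D and 3.69, 4.28 and 5.05 CPM in 3D, a log2 fold change of -0.96 (SE 0.21, adjusted p = 0.0017). HSPA1B was at 176, 162 and 128 CPM in 2D and 71.6, 75.4 and 87.9 CPM in 3D, a log2 fold change of -0.99 (SE 0.19, adjusted p = 4.6e-04). Every 3D library was below every 2D library for both genes, and replicate 3 was the lowest of the 2D libraries and the highest of the 3D libraries. In LS513 and LS174T the libraries overlapped for HSPA1B, at 57.3, 52.6 and 49.3 CPM against 47.2, 59.2 and 38.1 CPM and at 65.6, 65.3 and 59.8 CPM against 49.2, 67.9 and 42.9 CPM. The estimates were -0.14 (95% confidence interval -0.54 to 0.26, adjusted p = 0.67) in LS513 and -0.25 (95% confidence interval -0.65 to 0.14, adjusted p = 0.36) in LS174T, neither of which passed the test. HSPA1A was at most 6.37 CPM in these lines, and its estimates of -0.42 and -0.46 did not pass either (adjusted p = 0.19 and 0.15). Of the windows of 75 bases, the read length, 693 of 2409 in HSPA1A (28.8%) and 731 of 2447 in HSPA1B (29.9%) occur in no other gene, while 1716 are shared between them. Reads from the shared windows align more than once and were removed by the authors, so the counts of both genes rest on those 28.8% and 29.9% of windows.

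The pair was far from alike across lines. The ratio of HSPA1A to HSPA1B counts was 0.998 ± 0.0579 (SD, n = 3) in HT29 grown in 2D, 0.0978 ± 0.0117 in LS513, 0.0542 ± 0.00163 in HCT116 and 0.0646 ± 0.00819 in LS174T. HSPA1A was 23.8, 14.7 and 30.1 times higher in HT29 than in LS513, HCT116 and LS174T grown in 2D (adjusted p = 1.0e-14, 8.5e-14 and 3.5e-15). The counts of this pair rest on windows unshared in the reference transcripts, and whether each line carries that sequence was not tested. HSPA1B was 2.34 and 1.95 times higher in HT29 than in LS513 and LS174T (adjusted p = 6.3e-06 and 1.1e-04), and its difference from HCT116 was -0.32 (95% confidence interval -0.71 to 0.07, adjusted p = 0.13) on the log2 scale. Growth in 3D moved the ratio by a mean log2 difference of -0.10 over the 4 lines, which did not pass an exact permutation test of libraries within lines (two-sided p = 0.106, adjusted over 2 ratios tested 0.106, n = 3 per group); without HT29 3D replicate 4 the difference was -0.12 (p = 0.0364). Both ratios tested were chosen after their values had been seen. With the counts of both genes summed, the log2 fold change was -0.99 in HCT116, -0.50 in HT29, -0.27 in LS174T and -0.16 in LS513, and the same lines were called as for HSPA1B alone.

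**Figure D2:**
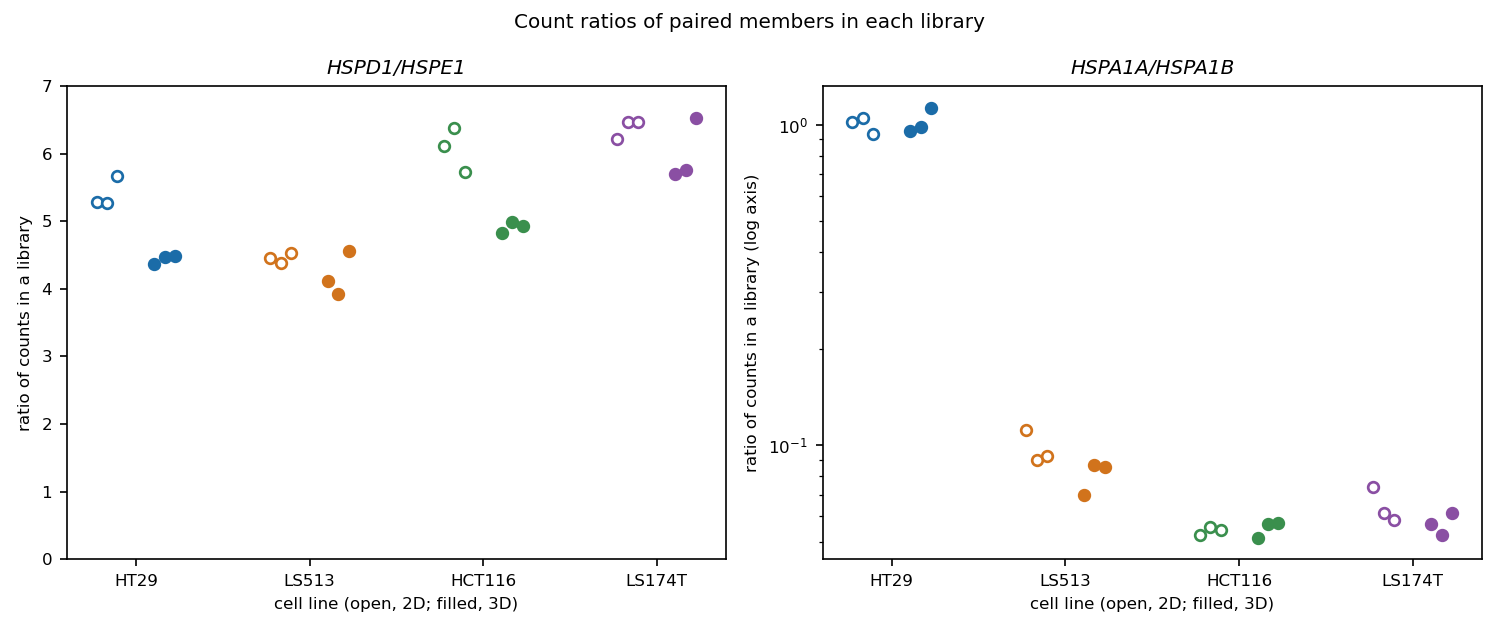
Ratio of HSPD1 to HSPE1 counts (left, linear axis from 0) and of HSPA1A to HSPA1B counts (right, log axis) in each library, with 2D as open and 3D as filled points. The HSPA1A to HSPA1B ratio lies near 1 in HT29 and at 0.111 or less in every library of the other lines.

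HSPA8 encodes the constitutive HSP70 of the cytosol, HSC70 (chr11:123057489-123063230, minus strand), and was the most abundant member per length. It was at 3957, 4493 and 3520.1 CPM in HT29 grown in 2D and at 2443, 3042 and 2737 CPM in 3D, with no overlap. In HCT116 it was at 3952, 3598 and 3416 CPM in 2D and 2312, 2466 and 3339 CPM in 3D, and the highest 3D library was just below the lowest 2D library. The log2 fold changes were -0.54 (SE 0.14, adjusted p = 0.0029) and -0.43 (SE 0.14, adjusted p = 0.019). The HCT116 call was lost without 2D replicate 1, 3D replicate 1 or 3D replicate 2 (adjusted p 0.0757 to 0.0941). In LS513 the libraries of 3D lay below those of 2D, at 2678, 2847 and 2595 CPM against 3350.0, 3152 and 3069.5 CPM, but the estimate of -0.24 (95% confidence interval -0.52 to 0.04, adjusted p = 0.22) did not pass the test. In LS174T they overlapped, at 4062, 3727 and 3926 CPM in 2D and 3279, 4573 and 3287 CPM in 3D, with an estimate of -0.07 (95% confidence interval -0.35 to 0.21, adjusted p = 0.75).

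HSPH1 encodes HSP105, a large relative of HSP70 that acts as its nucleotide exchange factor (chr13:31134974-31162388, minus strand). Its fall in 3D was the largest of the 10 members in every line. In HT29 it was at 726, 873 and 644 CPM in 2D and 231, 254 and 267 CPM in 3D. In LS513 it was at 601, 591 and 488 CPM in 2D and 284, 248 and 337 CPM in 3D. In HCT116 it was at 418, 380.5 and 383 CPM in 2D and 124, 168 and 220.4 CPM in 3D. None of the libraries of the 2 growth conditions overlapped in these lines, nor in LS174T, where the level was an order lower, at 44.6, 41.5 and 41.9 CPM in 2D and 19.2, 20.4 and 21.3 CPM in 3D. The log2 fold change was -1.58 (SE 0.15, adjusted p = 5.2e-08) in HT29, -0.95 (SE 0.15, adjusted p = 5.7e-05) in LS513, -1.21 (SE 0.15, adjusted p = 3.1e-06) in HCT116 and -1.07 (SE 0.15, adjusted p = 4.0e-05) in LS174T. Over the mean of the lines it was -1.20 (SE 0.08, adjusted p = 2.2e-11). These calls held without any library in turn.

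DNAJB1 encodes an HSP40, a J-domain protein that works with HSP70 (chr19:14514770-14529770, minus strand), and had the smallest average fall. It was at 151, 180.1 and 133 CPM in HT29 grown in 2D and 131, 195 and 119.9 CPM in 3D, where replicate 3 was the highest of all 6 libraries, and the estimate was -0.06 (95% confidence interval -0.39 to 0.28, adjusted p = 0.83), or -0.25 without that library (adjusted p = 0.228). Its libraries overlapped in LS513, at 226, 219 and 191 CPM against 200.3, 225 and 168 CPM, but not in LS174T, at 169, 160.1 and 157 CPM against 143, 139.7 and 119 CPM. In LS513 the estimate was -0.10 (95% confidence interval -0.43 to 0.23, adjusted p = 0.72) and in LS174T -0.27 (95% confidence interval -0.61 to 0.06, adjusted p = 0.22). In HCT116 it was at 351, 342 and 257 CPM in 2D and 212, 204 and 269 CPM in 3D, an overlap of 1 library of each, with replicate 3 the lowest in 2D and the highest in 3D. It fell there, by 0.47 (SE 0.16, adjusted p = 0.029) on the log2 scale, and this call was lost without 2D replicate 1 or 2 or 3D replicate 1 or 2 (adjusted p 0.0885 to 0.127).

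BAG3 encodes a co-chaperone that binds HSP70 and small heat shock proteins and leads clients to autophagy (chr10:119651370-119677819, plus strand). Its estimates lay close together in the 4 lines. It was at 73.1, 85.9 and 72.9 CPM in HT29 grown in 2D and 57.3, 70.6 and 50.8 CPM in 3D, at 142, 137 and 134 CPM and 106, 112 and 115 CPM in HCT116, and at 70.4, 60.1 and 62.3 CPM and 53.7, 56.9 and 43.9 CPM in LS174T. In none of these lines did the libraries overlap. The log2 fold change was -0.38 (SE 0.11, adjusted p = 0.0087) in HT29 (-0.47 without 3D replicate 3, adjusted p = 0.0026), -0.31 (SE 0.11, adjusted p = 0.035) in HCT116 and -0.32 (SE 0.11, adjusted p = 0.04) in LS174T, and in LS513, where the libraries did not overlap either (70.4, 71.8 and 67.7 CPM against 62.6, 57.5 and 55.1 CPM), it was -0.26 (95% confidence interval -0.49 to -0.03, adjusted p = 0.089). Each call depended on single libraries: it was lost in HT29 without 2D replicate 2, 3D replicate 1 or 3D replicate 4 (adjusted p 0.0564 to 0.113), in HCT116 without 2D replicate 1 or 2 or 3D replicate 1 or 2 (0.0623 to 0.107), and in LS174T without 2D replicate 1 or 3 or 3D replicate 1 or 3 (0.0553 to 0.165). The range of the 4 estimates, 0.12, was the smallest of the members.

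HSP90AA1 encodes the inducible cytosolic HSP90, which completes the folding of kinases and steroid receptors (chr14:102080738-102139699, minus strand). It was at 2198, 2593 and 2091 CPM in HT29 grown in 2D and at 926, 1257 and 1295 CPM in 3D, at 3713, 3481 and 3039.9 CPM and 2146, 2032 and 2406 CPM in LS513, and at 5144, 4843 and 4895 CPM and 2419.7, 2988 and 3822 CPM in HCT116. In these lines the libraries did not overlap, and the log2 fold change was -0.98 (SE 0.15, adjusted p = 1.8e-05) in HT29, -0.64 (SE 0.15, adjusted p = 0.0026) in LS513 and -0.69 (SE 0.15, adjusted p = 0.0011) in HCT116, calls that held without any library in turn. In LS174T all 3D libraries were again below the 2D libraries, at 1721, 2276 and 1981 CPM against 2631, 2377 and 2665 CPM, and the estimate of -0.36 (95% confidence interval -0.66 to -0.06, adjusted p = 0.078) did not pass.

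HSPD1 and HSPE1 encode HSP60 and HSP10, the barrel and the lid of the mitochondrial chaperonin (chr2:197486581-197516737, minus strand, and chr2:197499994-197503457, plus strand). HSPD1 was at 1420.3, 1534 and 1513 CPM in HT29 grown in 2D and 886, 973 and 1026 CPM in 3D. It was at 2056, 2075 and 1783 CPM and 1392, 1408 and 1620.4 CPM in LS513, and at 1754, 1642 and 1784 CPM and 925, 1059 and 1299 CPM in HCT116. In LS174T it was at 1468, 1406 and 1517 CPM and 1249, 1311 and 1377 CPM. The libraries of 2D and 3D did not overlap in any line, but in LS174T the gap was narrow. The log2 fold change was -0.63 (SE 0.10, adjusted p = 5.5e-05) in HT29, -0.42 (SE 0.10, adjusted p = 0.0047) in LS513 and -0.66 (SE 0.10, adjusted p = 6.2e-05) in HCT116, calls that held without any library in turn, and -0.16 (95% confidence interval -0.37 to 0.06, adjusted p = 0.29) in LS174T. HSPE1 was at 269, 291 and 267 CPM in HT29 grown in 2D and 203, 218 and 229 CPM in 3D. It was at 461, 473 and 394 CPM and 338, 359 and 356 CPM in LS513, at 287, 257 and 311 CPM and 192, 212 and 264 CPM in HCT116, and at 236, 218 and 235 CPM and 219, 227 and 211 CPM in LS174T. The 2 growth conditions were apart in HT29 and LS513, and overlapped in HCT116 and LS174T. Its log2 fold change was -0.35 (SE 0.10, adjusted p = 0.0078) in HT29, -0.34 (SE 0.10, adjusted p = 0.016) in LS513, -0.36 (SE 0.10, adjusted p = 0.0093) in HCT116 and -0.07 (95% confidence interval -0.27 to 0.14, adjusted p = 0.68) in LS174T. The HSPE1 calls were lost in HT29 without 2D replicate 2 or 3D replicate 1 (adjusted p 0.0664 and 0.0691), in LS513 without 2D replicate 1 or 2 or 3D replicate 1 (0.0644 to 0.0947) and in HCT116 without 3D replicate 1 (0.0569).

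HSPD1 fell further than its partner over the mean of the lines. The ratio of HSPD1 to HSPE1 counts was 5.41 ± 0.229 (SD, n = 3) in HT29 grown in 2D and 4.44 ± 0.0694 in 3D, and 6.08 ± 0.328 against 4.91 ± 0.0873 in HCT116, with no overlap in either line. It was 4.46 ± 0.0719 against 4.2 ± 0.325 in LS513 and 6.38 ± 0.145 against 5.99 ± 0.46 in LS174T, where 1 library of 3D was the highest of its line in each case. The mean log2 difference over the lines was -0.19, from -0.28 in HT29 and -0.30 in HCT116 to -0.09 in LS513 and LS174T. An exact permutation test of libraries within lines gave a two-sided p of 0.000212 (adjusted over 2 ratios tested 0.000425, 160000 arrangements, n = 3 per group). The ratio was chosen after its values had been seen, which this p does not allow for. The annotated exons of HSPE1 share 192 bases (9.71%) with the readthrough gene HSPE1-MOB4 on the same strand and 281 bases with HSPD1 on the opposite strand. HSPE1-MOB4 held 142394 counts over all libraries against 37120 for MOB4, and with HSPE1 and HSPE1-MOB4 summed the log2 fold change was -0.27, -0.34, -0.31 and -0.08 in HT29, LS513, HCT116 and LS174T, with the same 3 lines called.

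HSPB1 encodes HSP27, a small heat shock protein (chr7:76302544-76304295, plus strand), and was the 1 member higher in 3D. In LS513 it was at 342, 382 and 406 CPM in 2D and at 564, 576 and 473 CPM in 3D, without overlap, a log2 fold change of 0.51 (SE 0.13, adjusted p = 0.006), and this call held without any of the LS513 libraries. In HT29 the libraries did not overlap either, at 160.1, 166 and 174 CPM and 221, 191 and 214 CPM, and the estimate of 0.32 (95% confidence interval 0.05 to 0.60, adjusted p = 0.054) stood close to the threshold: it passed with DESeq2 (0.0321) and without 3D replicate 3 (0.0244). In HCT116 it was at 209, 193 and 277 CPM and 264, 301 and 283 CPM. Replicate 3 was far above the other 2D libraries, and the estimate was 0.32 (95% confidence interval 0.05 to 0.59, adjusted p = 0.069), or 0.46 without that library (adjusted p = 0.0109). The libraries left out here were the lowest of 3D in HT29 and the highest of 2D in HCT116. Both stood against the rise, so these exclusions do not make it firmer. In LS174T it was at 264, 259 and 277 CPM and 269.9, 389 and 267 CPM, where 1 library of 3D stood above the others, and the estimate was 0.21 (95% confidence interval -0.06 to 0.48, adjusted p = 0.25). Over the mean of the 4 lines the log2 fold change was 0.34 (SE 0.07, adjusted p = 1.3e-04).

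**Figure D3:**
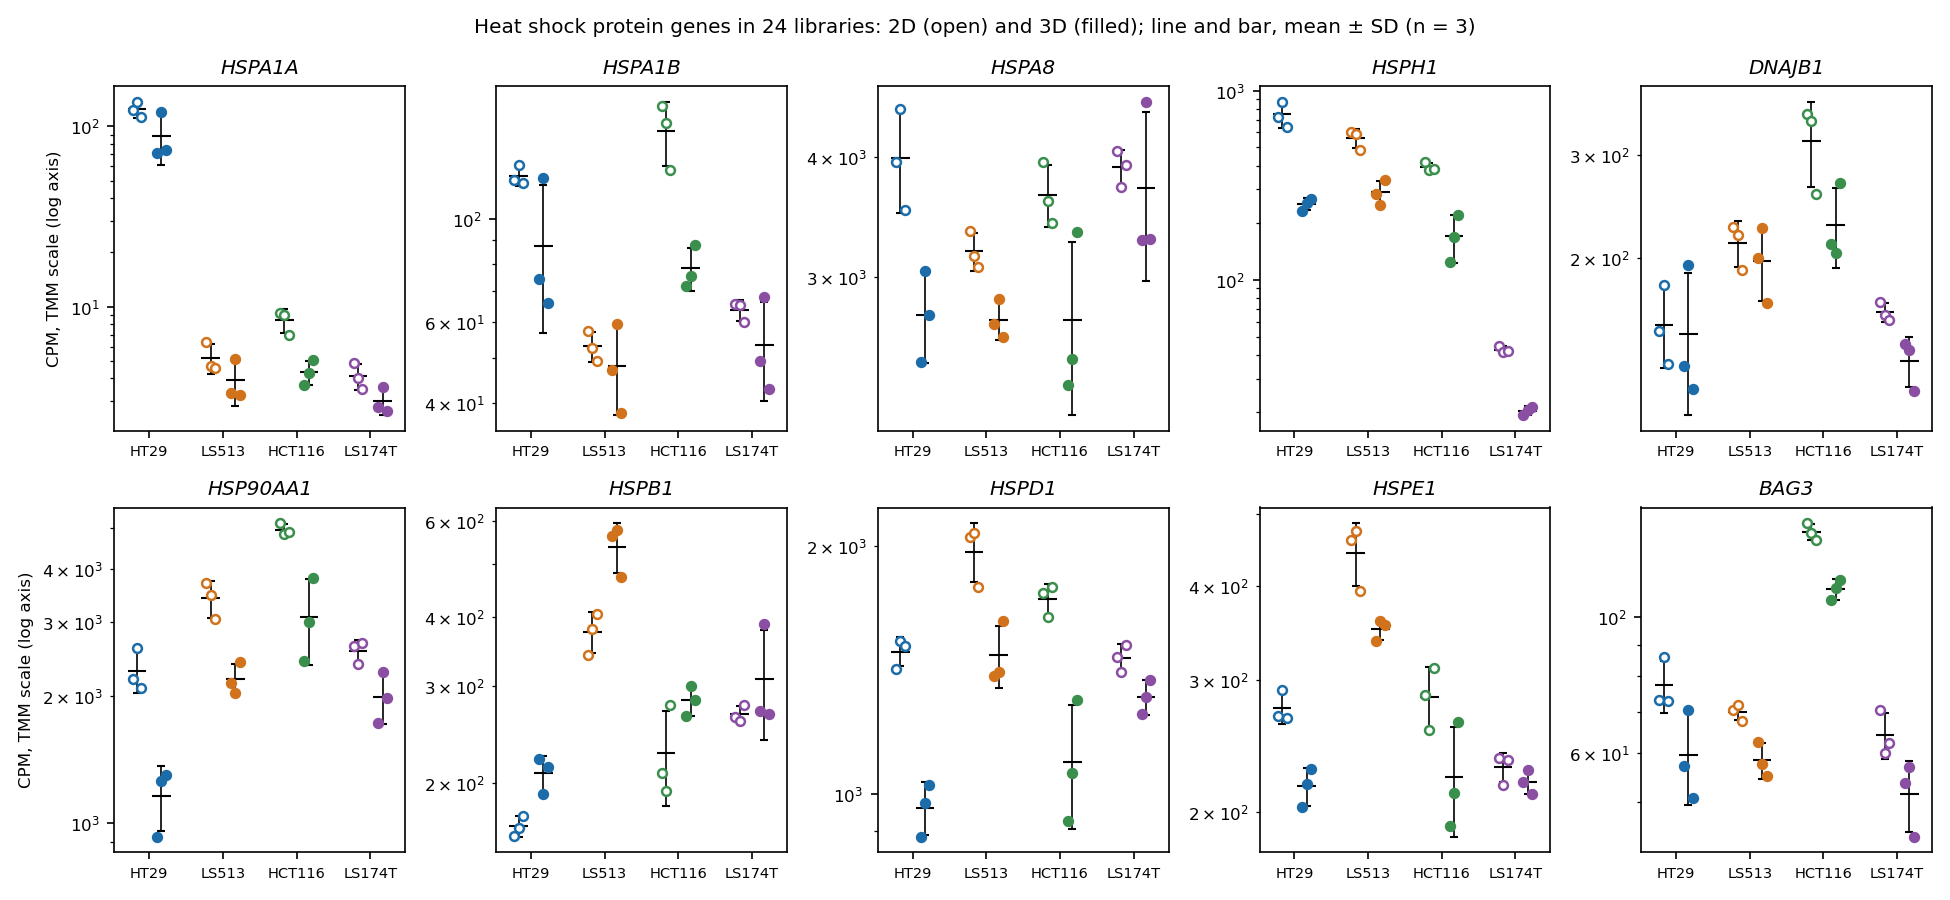
Level of each member in the 24 libraries, as CPM on the TMM scale on a log axis, with 2D as open and 3D as filled points. Short lines and bars give the mean ± SD (n = 3), and HSPH1 shows 3D libraries below 2D libraries in all 4 lines.

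Whether the response to 3D differed between lines was tested by the interaction of line and growth condition. Of the members, 1 passed, HSPD1 (adjusted p = 0.048, edgeR), where 17.1% of all genes did. Its estimates ran from -0.66 in HCT116 to -0.16 in LS174T. HSPA1B had the widest spread of estimates, 0.85 from HCT116 to LS513, and an adjusted interaction p of 0.094. For HSPH1 and HSP90AA1 it was 0.14 and 0.16, and for BAG3 0.96. A member called in one line and not in another is therefore not shown to differ between them, HSPD1 apart, and the HSPD1 call rests on a margin: with any of 18 single libraries left out the number of members passing was 0, the exceptions being HT29 3D replicates 3 and 4, LS513 3D replicate 3, HCT116 2D replicate 3, HCT116 3D replicate 3 and LS174T 3D replicate 2.

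The levels of the members differed far more than their responses. Per kilobase of exon, HSPA8 was highest, at a mean of 686 CPM per kilobase over the 24 libraries, followed by HSP90AA1 (516), HSPD1 (338), HSPB1 (182), HSPE1 (142), DNAJB1 (52.9), HSPH1 (36.9), HSPA1B (32.9), BAG3 (28.6) and HSPA1A (12.2). HSPA8 was also the steadiest, its highest library at 1.98 times its lowest, whereas the same ratio was 45.5 for HSPH1 and 51.9 for HSPA1A. When length was taken as the 75-base windows found in no other gene, HSPA8, HSP90AA1 and HSPD1 were again ranked 1 to 3, HSPE1 rose above HSPB1, and HSPA1B moved from rank 8 to rank 6, at 113 CPM per kilobase.

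The 2D libraries were then compared between lines, in 6 pairs that share libraries with each other and with the comparisons of 3D and 2D. The number of members that differed was 9 for HT29 against LS513 (60.6% of all genes), 6 for HT29 against HCT116 (68.8% of all genes), 6 for HT29 against LS174T (64.6% of all genes), 8 for LS513 against HCT116 (68.3% of all genes), 6 for LS513 against LS174T (57.6% of all genes) and 8 for HCT116 against LS174T (68.3% of all genes). HCT116 held the highest HSP90AA1, at 4961 ± 161 CPM (SD, n = 3), against 3411 ± 342 CPM in LS513, 2558 ± 157 CPM in LS174T and 2294 ± 265 CPM in HT29. In that order the step from LS174T to HT29 did not pass the test, at a log2 difference of -0.16 (95% confidence interval -0.46 to 0.14, adjusted p = 0.36), and each other step did. HCT116 was also the highest in BAG3, at 138 ± 4.27 CPM, with the other lines between 64.3 and 77.3 CPM. For DNAJB1 it stood at 317 ± 52.2 CPM, above LS513 at 212 ± 18.8 CPM, which was above LS174T and HT29.

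LS513 held the highest HSPB1 and HSPE1, at 376 ± 32.1 CPM and 443 ± 42.7 CPM. HSPE1 in HT29 (276 ± 13.6 CPM) and HCT116 (285 ± 27.1 CPM) differed by -0.05 (95% confidence interval -0.26 to 0.16, adjusted p = 0.69) on the log2 scale, and LS174T was lowest at 229 ± 10.3 CPM. LS174T stood apart by its low HSPH1, at 42.7 ± 1.70 CPM against 748 ± 116 CPM in HT29, 560.0 ± 62.9 CPM in LS513 and 394 ± 21.2 CPM in HCT116. These lines were 17.5, 13.1 and 9.23 times above it (adjusted p = 4.0e-16, 2.4e-15 and 1.7e-14). HSPA8 differed in 1 of the 6 pairs of lines, HT29 over LS513 by 0.32 (SE 0.14, adjusted p = 0.044) on the log2 scale.

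The members also varied together among libraries of the same group, which is given as a description. Deviations of log2 levels from the group means were correlated over the 24 libraries, which share library, depth and scaling. The stress-inducible genes HSPA1A, HSPA1B and DNAJB1 went together, with Pearson's r of 0.89 for HSPA1A and HSPA1B, 0.87 for HSPA1B and DNAJB1 and 0.85 for HSPA1A and DNAJB1, and BAG3 joined them at 0.65 to 0.76. HSP90AA1, HSPH1, HSPD1 and HSPE1 formed another set, at 0.74 to 0.86. Between the sets r was lower, from 0.00 for HSPA1B and HSPD1 to 0.45 for HSPA1A and HSP90AA1, whereas HSPA8 was at 0.49 to 0.80 with both. HSPB1 had r between -0.26 and 0.25 with every other member. Replicate 3 of HT29 grown in 3D was the highest 3D library of its line in HSPA1A, HSPA1B, DNAJB1 and BAG3, but not in HSPH1, HSP90AA1, HSPD1 or HSPE1.

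**Figure D4:**
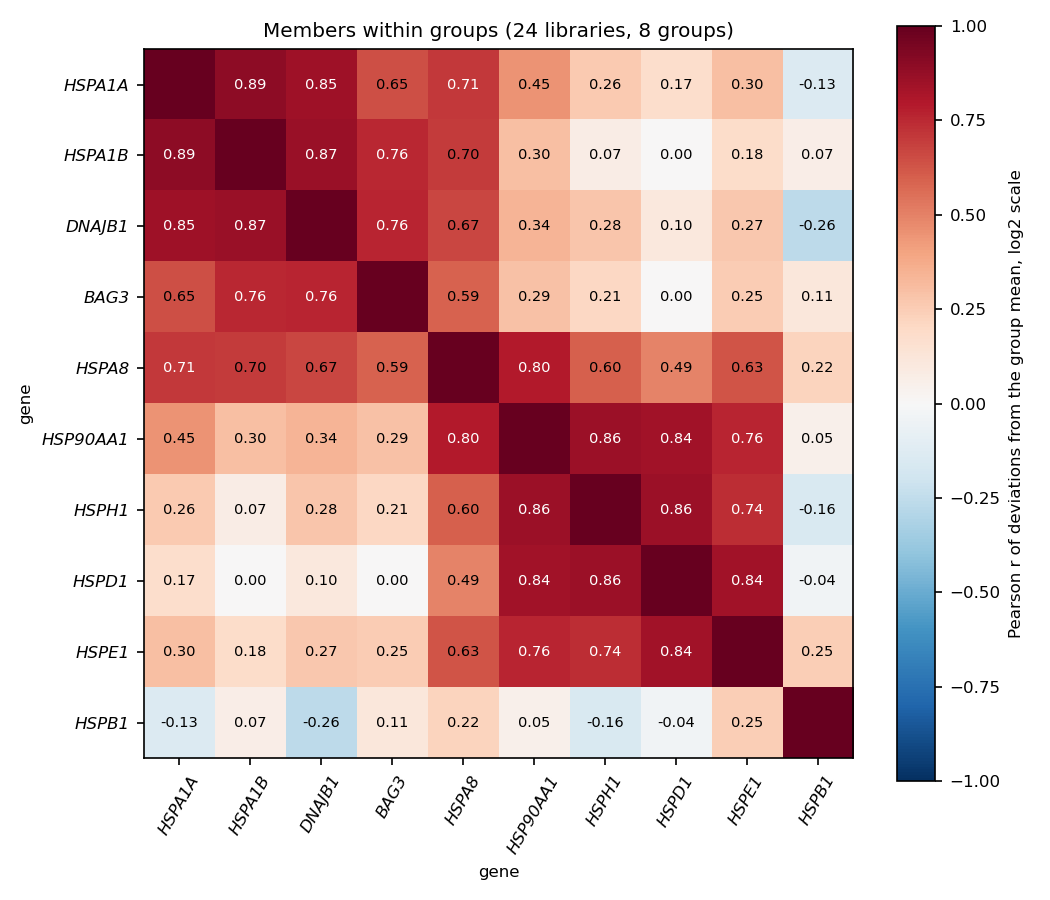
Pearson correlation of the members' deviations from their group means on the log2 scale, over 24 libraries in 8 groups. Values of 0.65 to 0.89 link HSPA1A, HSPA1B, DNAJB1 and BAG3, and values of 0.74 to 0.86 link HSP90AA1, HSPH1, HSPD1 and HSPE1.

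Other genes of the chaperone network were read from 8 lists. Of 62 genes listed, 61 were found and 53 were tested, and 24 of them were called lower and 8 higher over the mean of the 4 lines. The share of all genes was 23.9% lower and 26.6% higher in that comparison. HT29 had 23 of the tested genes lower and 3 higher (19.6% and 21.1% of all genes, median -0.28), and LS513 14 and 2 (9.9% and 13.7%, median -0.09). HCT116 had 24 and 3 (12.3% and 16.8%, median -0.19), and LS174T 10 and 6 (9.15% and 13.1%, median -0.03). Over the mean of the lines the median of all genes tested was 0.04, against which the list medians below can be read. Of the 3 HSF genes (median 0.21), 1 was lower and 1 higher. HSF1, which switches on the heat shock response, had a log2 fold change of 0.21 over the mean of the lines (SE 0.05, adjusted p = 0.0019). Of the single lines it was called higher in LS174T alone, at 93.2 ± 4.09 CPM in 2D and 117 ± 24.4 CPM in 3D. In HT29, where it was not called, it was at 161 ± 3.86 CPM in 2D and 173 ± 7.24 CPM in 3D. HSF2 fell, by 0.34 (SE 0.06, adjusted p = 5.3e-05), and its response differed between lines (interaction adjusted p = 0.02), with estimates from -0.72 in LS513 to 0.04 in LS174T. The third gene of this list did not pass over the mean of the lines.

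In the list of HSP90 and its co-chaperones, 8 of 11 genes were called lower and 0 higher over the mean of the lines (median -0.37). HSP90AB1, the constitutive HSP90, fell by 0.57 (SE 0.05, adjusted p = 1.4e-09) on the log2 scale over the mean of the lines. In HT29 it went from 2325 ± 164 CPM to 1156 ± 119 CPM, a log2 fold change of -1.01 (SE 0.09, adjusted p = 3.2e-08), and its response differed between lines (interaction adjusted p = 6.0e-04), the LS513 estimate being -0.23 (95% confidence interval -0.42 to -0.04, adjusted p = 0.075). CHORDC1, an HSP90 co-chaperone, fell by 0.89 (SE 0.08, adjusted p = 3.2e-09), and STIP1, which hands clients from HSP70 to HSP90, by 0.49 (SE 0.05, adjusted p = 1.5e-08). Both were called lower in all 4 lines. FKBP5 and FKBP4, immunophilins bound to HSP90, fell by 0.45 and 0.37 (adjusted p = 1.3e-05 and 2.8e-05), and AHSA1, an activator of its ATPase, by 0.21 (0.0017).

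Of 9 other HSP70 and HSP110 genes tested, 5 were called lower and 1 higher (median -0.23). HSPA4, an HSP110 relative of HSPH1, fell by 0.51 (SE 0.04, adjusted p = 1.3e-09) and was called in all 4 lines, and HSPA9, the mitochondrial HSP70, fell by 0.23 (SE 0.04, adjusted p = 8.9e-06). HSPA2 was at 0.17 (adjusted p = 0.22). HSPA6, an HSP70 gene that is nearly silent without stress, was at 0.686, 1.27 and 0.877 CPM in HT29 grown in 2D and 0.603, 20.7 and 0.871 CPM in 3D. Its call in HT29 (log2 fold change 2.95, adjusted p = 0.035) rests on replicate 3, the other two 3D libraries lying within or below the range of the 2D libraries. In that library HSPA1A, HSPA1B and DNAJB1 were also the highest of the 3D libraries of that line. HSPA6 had at most 3 counts in each library of HCT116 and 0 in those of LS174T. Among 9 HSP40 genes 1 was lower and 1 higher (median -0.08): DNAJA1 fell by 0.36 (SE 0.06, adjusted p = 3.7e-05), DNAJB2 rose by 0.65 (SE 0.07, adjusted p = 4.7e-08), and DNAJB4 was at -0.18 (adjusted p = 0.18).

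Of the other small heat shock protein genes, HSPB8 alone passed the filter on low counts, and the rest, CRYAB included, had at most 8 counts in any library. HSPB8, a partner of BAG3, rose by 0.99 (SE 0.22, adjusted p = 5.3e-04) over the mean of the lines. Its estimates were 0.62 in HCT116, 0.69 in HT29, 0.64 in LS513 and 2.00 in LS174T, so that the last raises the mean. It was at 6.25, 6.96 and 8.73 CPM in HCT116 grown in 2D and 10.6, 11.0 and 12.1 CPM in 3D, and it was at 0.81 CPM or less in every library of the other lines. In LS174T its counts were 1 per library in 2D and 3 to 5 in 3D, so the estimate and the call there (adjusted p = 0.045) stand near the floor. Of 7 HSP70 cofactors, 3 were lower and 2 higher (median -0.04), and BAG2, an exchange factor, fell by 0.55 (SE 0.05, adjusted p = 3.5e-09), in all 4 lines. Of the 8 subunits of TRiC, the cytosolic chaperonin that folds actin and tubulin, 5 were lower and 0 higher (median -0.28). TCP1 fell by 0.51 (SE 0.05, adjusted p = 1.8e-08) and CCT2 was at -0.04 (adjusted p = 0.75). The mitochondrial cofactors and proteases were mixed, with 1 of 5 lower and 2 higher (median 0.08): GRPEL2 fell by 0.32 (SE 0.07, adjusted p = 3.0e-04), LONP1 rose by 0.14 (SE 0.05, adjusted p = 0.014), and GRPEL1 was at 0.07 (adjusted p = 0.17).

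**Figure D5:**
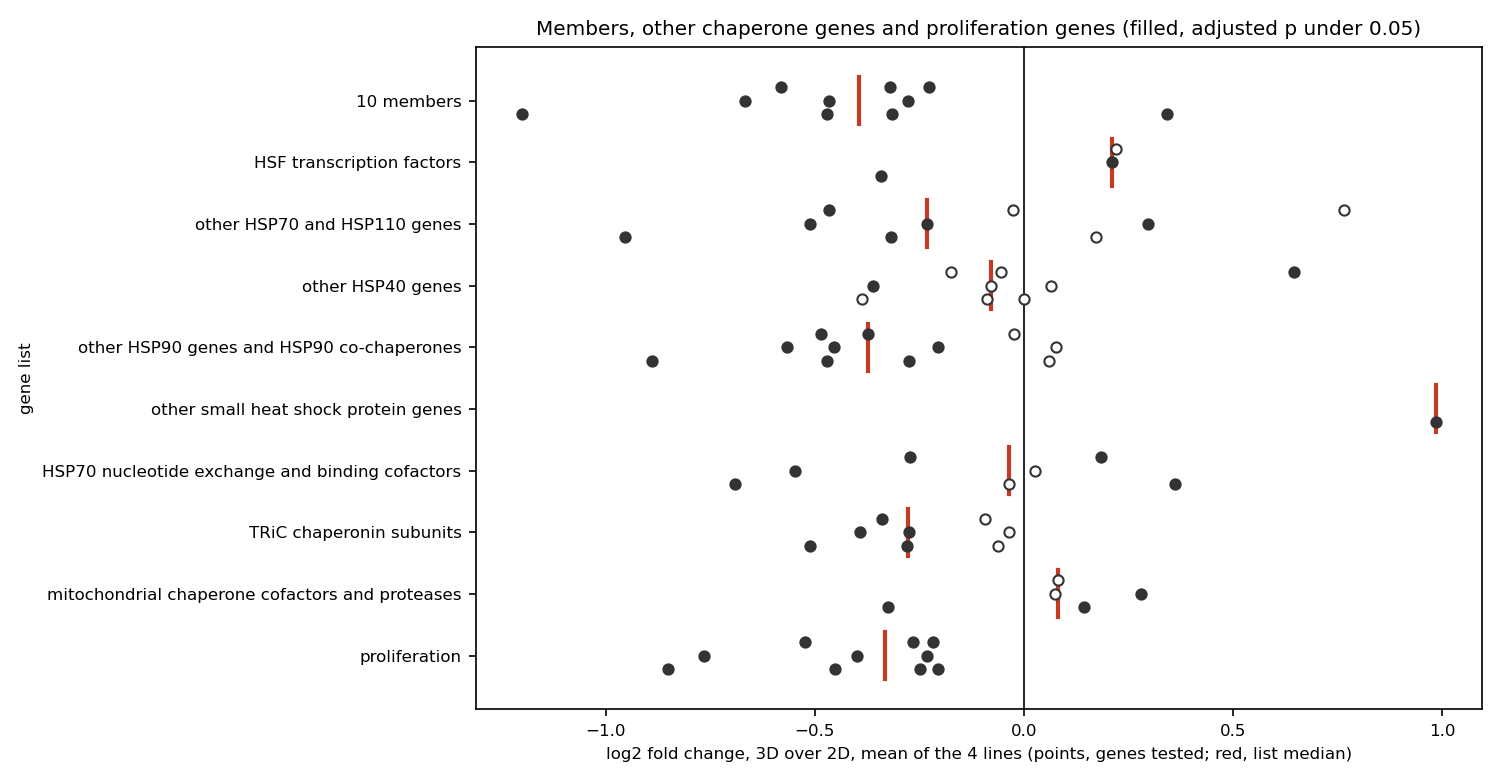
Log2 fold change of 3D over 2D, mean of the 4 lines, for the members, the other chaperone genes tested and the proliferation genes, 1 point per gene, filled where the adjusted p was under 0.05. Red lines give list medians, -0.39 for the members and -0.33 for the proliferation genes.

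The genes whose levels most resembled those of HSPH1 over the 24 libraries, by Pearson's r of log2(CPM + 1), were ZC3H15 (0.98), HYOU1 (0.97), ABCF1 (0.97), ELOA (0.96) and FAM83D (0.96). For HSPD1 they were GTSE1 (0.93), RBM19 (0.91), EIF5B (0.91), NUF2 (0.89) and AGPS (0.89). These are the highest of 19387 genes, given as a description, and the points share line, library and depth.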

How the data were processed

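RNA-Seq was performed by the authors on poly(A) RNA with a stranded kit and single reads of 75 bases. Reads were demultiplexed (bcl2fastq 2.18.0.12), trimmed (Trim Galore 0.4.1) and aligned (STAR), multi-aligned reads were removed, and reads per Ensembl gene were counted (HTSeq 0.5.3). The deposited values are raw counts for each technical replicate. The submitters' processing notes name hg19, whereas the methods name Ensembl release 91, and the files hold no coordinates. Gene models and symbols came from GENCODE 29 (GRCh38), and the most counted identifier was kept for each symbol.

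Counts of the 8 technical replicates of a library were summed. HT29 3D replicate 4 had 7, its technical replicate d being not analysed here. Of 58243 genes, 36442 had a count and 19387 passed filterByExpr. All 24 libraries were fitted in 8 groups with edgeR 4.0.16 in R 4.3.3 (TMM factors, robust quasi-likelihood test, Benjamini-Hochberg adjustment, threshold 0.05, no fold cutoff). Levels are CPM, counts per 1000000, on the TMM scale. Figures and sequence matches were made in Python 3.11.15. The fits were tested on simulated data, in which 200 genes were changed by 1 on the log2 scale in HT29 grown in 3D. Of these, 139 were called (69.5%), along with 4 unchanged genes, so a change that did not pass can still be present. The labels do not say whether libraries with the same replicate number were made together, and the main fit did not pair them.

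The members and all lists were chosen with earlier results of these data known. The genes named are all members, fixed genes of each chaperone list, the gene with the smallest p in each list, and the 5 genes most like HSPH1 and HSPD1. Alternatives were DESeq2 1.42.0, its size factors, no filter, technical replicate d left out, a replicate block, each line fitted alone, the fold cutoffs of the study, leaving out each library, and summing overlapping genes. Length in unshared windows was an alternative chosen after seeing the data.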

Additional observations from a re-analysis of the deposited data

Results flagged for a closer look

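The response of HSPD1 to growth in 3D passed the test of the difference between lines by a small margin (interaction, edgeR, adjusted p = 0.048), as 17.1% of all genes did. Its largest and smallest log2 fold changes lay 0.50 apart, at -0.66 in HCT116 and -0.16 in LS174T. No member passed with any of 18 single libraries left out, with technical replicate d left out or with the replicate block, so the difference is not a firm one. Single outlying libraries were not tested within groups of 3.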

How the results depend on the processing

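The cause of the changes below was not tested. The number of members called higher in HT29 went from 0 to 1, by HSPB1, with DESeq2 size factors, with the DESeq2 test, with all genes of at least 1 count tested, with technical replicate d left out and with the HT29 libraries fitted alone. The number whose response differed between lines was 4 with all genes tested and 0 with technical replicate d left out. Fitted alone, LS174T gave 1 member lower. With the fold cutoffs of the study (log2 fold change under -0.5 or over 1.5) the members called lower were 5 in HT29 and HCT116, 2 in LS513 and 1 in LS174T, and 0 were called higher in LS513. Libraries with the same replicate number showed no common direction of deviation (r from -0.209 to 0.216 over 11 pairs), which does not exclude pairing. With the replicate block 4 members were lower in HT29 and 0 passed the interaction, while the DNAJB1 estimate in HT29 became 0.18. The block moved no other count of called members by over 1.5 times.

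With each library left out in turn, the members called lower were 4 to 8 in HT29, 5 to 9 in HCT116, 3 to 4 in LS513, 1 to 2 in LS174T and 8 to 9 over the mean of the lines. Those called higher were 0 to 1 in HT29 and HCT116, 1 in LS513 and 0 in LS174T, and those passing the interaction 0 to 2. Estimates changed sign for DNAJB1 in HT29 (0.10 without 2D replicate 2, 0.05 without 3D replicate 1, 0.11 without 3D replicate 4, range -0.25 to 0.11), for HSPA1B and DNAJB1 in LS513 without 3D replicate 3 (0.0049 and 0.0030, with HSPA1B ranging down to -0.32) and for HSPA8 in LS174T without 3D replicate 1 or 3 (0.0084 and 0.0070, ranging down to -0.24). None of these had passed the test.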
